A study of Homo sapiens with 15 samples.

Results

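A group of 300 genes was higher in MM.1S cells after dCBP-1 and after A-485 with GNE-781 than after DMSO. MM.1S is an established human multiple myeloma line, a tumour of plasma cells. The members were chosen by measured values in 9 of the 15 libraries. With L the log2 of a group's mean normalized read count plus 1, L had to exceed that of DMSO by at least 0.7 in A-485 + GNE-781 and by at least 1 in dCBP-1. The dCBP-1 mean had to reach 100 and all 6 treated values had to lie above all 3 DMSO values. Of the genes that passed, 4 were left out by the rule and 344 remained, of which the 300 with the highest dCBP-1 minus DMSO were kept. They were 1.86% of the 16104 genes tested and all 300 passed the filter on low values, out of 47459 genes with values. Because the DMSO, A-485 + GNE-781 and dCBP-1 libraries chose the members, their differences from DMSO are given as a description with no test.

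The study compared 5 groups of 3 libraries, each from cells held for 6 h in the named agents at 100 nM each or in DMSO. The agents were A-485 alone, GNE-781 alone, both of these together (A-485 + GNE-781), dCBP-1, and DMSO as the vehicle. RNA was read by 3′ end sequencing, which places reads near the end of each transcript, and all groups carried ERCC spike-in RNA from the lysis step. Nothing in the labels says that the 3 libraries of a group came from separate cultures, so a p-value measures only the spread between these libraries.

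CBP and p300 are a pair of closely related lysine acetyltransferases that act as coactivators at enhancers and promoters, where they acetylate histone tails and bind acetylated lysines through a bromodomain. A-485 blocks the acetyltransferase site, GNE-781 fills the bromodomain, and dCBP-1 links a GNE-781-like bromodomain binder with a ligand of cereblon, a receptor of ubiquitin ligases, so that both proteins are degraded. They are known in myeloma cells for holding up the genes of the plasma cell state.

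The 15 libraries held between 13103114 and 18291529 reads. All 10 plasma cell markers averaged at least 100 normalized read counts in DMSO. None of the markers of any of the 9 cell types examined was a member. The summed plasma cell markers ranged from 24963 to 26922 in dCBP-1 against 67663 to 72161 in DMSO. The summed neuronal markers ranged from 257 to 315 in dCBP-1 and from 118 to 154 in DMSO. Of these, MAP2 averaged 232 in dCBP-1 and 123 in DMSO, and SYP averaged 44.6 and 11.5. TUBB3 averaged 1.35 in dCBP-1 and 1.57 in DMSO, STMN2 averaged 0.62 and 0, and SNAP25 was listed at 0 in every group. The summed epithelial markers ranged from 22.3 to 30.8 in dCBP-1 and from 2.11 to 7.28 in DMSO. Of these, KRT18 averaged 20.5 in dCBP-1 and was listed at 0 in DMSO, KRT8 averaged 3.03 in dCBP-1 and 3.54 in DMSO, CDH1 averaged 0.81 in dCBP-1 and 1.51 in DMSO, and KRT19 was listed at 0 throughout. The summed fibroblast and endothelial markers ranged from 1988 to 2819 in dCBP-1 and from 8129 to 9093 in DMSO, nearly all of it VIM. The B cell sum was also lower in every dCBP-1 library than in any DMSO library, from 204 to 223 in dCBP-1 and from 407 to 420 in DMSO, as were the NK cell sum and the erythroid and megakaryocyte sum. The part of these shifts in the members' values was not tested. In bulk RNA, fewer cells of a type and less RNA per cell cannot be told apart. The DMSO libraries were unlike each other. Reads of the mitochondrial genome made up between 14.3% and 17.0% of treated libraries and 16.4% of DMSO replicate 3, but 23.1% and 19.7% of DMSO replicates 1 and 2. At the depth of the shallowest library, between 18735 and 20547 genes had a read in treated libraries and 19678 in DMSO replicate 3, but 16274 and 17376 in DMSO replicates 1 and 2.

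The members' levels stepped up through the treatments. The median member level, as log2 of the normalized read count plus 1, was 8.05, 8.07 and 8.17 in the dCBP-1 libraries and 7.58, 7.77 and 7.70 in the A-485 + GNE-781 libraries. It was 7.51, 7.55 and 7.57 in GNE-781, 7.20, 7.10 and 6.94 in A-485, and 6.60, 6.63 and 6.96 in DMSO. The 3 dCBP-1 libraries were the highest of the 15, and A-485 replicate 3 lay just below DMSO replicate 3. The median L difference from DMSO over members was 1.36 for dCBP-1, 0.97 for A-485 + GNE-781, 0.83 for GNE-781 and 0.36 for A-485. The same medians over all genes tested were 0.03 for dCBP-1, 0.06 for A-485 + GNE-781, 0.04 for GNE-781 and -0.05 for A-485. For 227 members the group means increased from DMSO through A-485, then GNE-781, then the pair, to dCBP-1. The dCBP-1 mean was the highest of 5 for 294 members, and the A-485 mean rather than the DMSO mean was the lowest for 23. The rule placed DMSO below the pair and dCBP-1, asked more of dCBP-1 than of the pair and ranked members by dCBP-1. It thus set part of this order, and the counts are a description. The share of all genes tested with this order is not given.

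**Figure D1:**
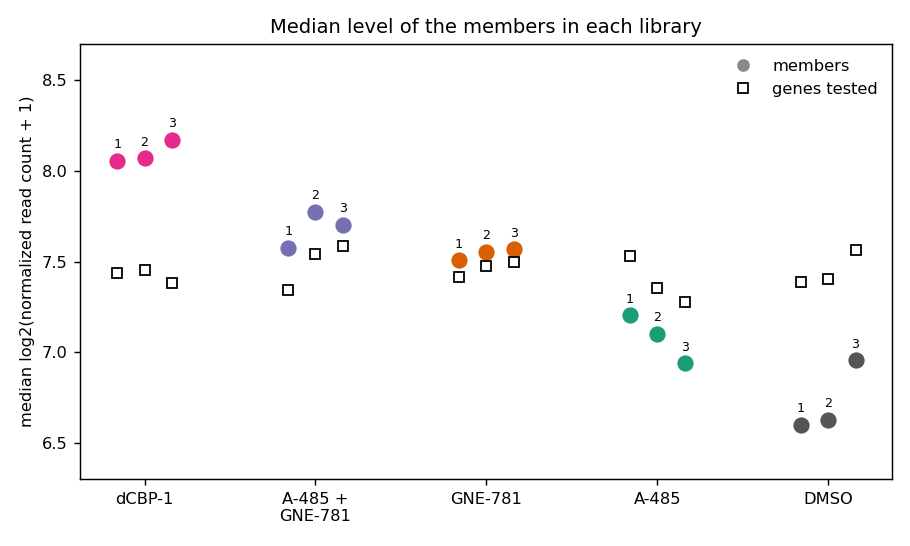
Median log2(normalized read count + 1) in each library, by treatment, over the 300 members (filled circles, numbered by replicate) and over the 16104 genes tested (open squares). The members' medians lie between 8.05 and 8.17 in dCBP-1 and between 6.60 and 6.96 in DMSO, with DMSO replicate 3 the highest of its group.

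**Figure D2:**
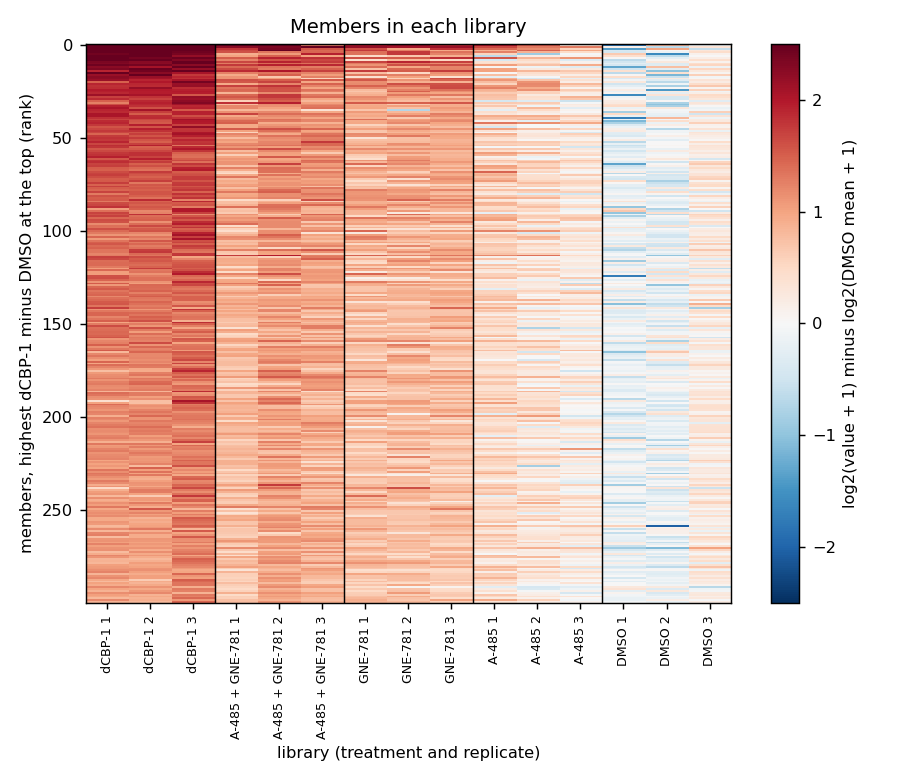
Each of the 300 members (vertical axis, ordered by dCBP-1 minus DMSO) in each of 15 libraries (horizontal axis), coloured by log2(value + 1) minus log2(DMSO mean + 1), with colours saturated at the ends of the bar. The columns fade from dCBP-1 on the left towards A-485, and the column of DMSO replicate 3 is redder than those of the other DMSO libraries.

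Part of the distance from DMSO was set by DMSO replicates 1 and 2. DMSO replicate 3 was above the mean of those 2 libraries for 248 members, or 82.7%, against 68.3% of the genes tested, and the median log2 difference was 0.37 over members and 0.19 over genes tested. Against DMSO replicate 3 alone, the members' median L difference was 1.16 for dCBP-1, 0.77 for A-485 + GNE-781, 0.60 for GNE-781 and 0.12 for A-485. Over all genes tested these medians were -0.09 for dCBP-1, -0.07 for A-485 + GNE-781, -0.09 for GNE-781 and -0.17 for A-485. Of the 300 members, 156 still met the rule when DMSO replicates 1 and 2 were both left out. For 14 members, or 4.67%, DMSO replicate 3 was at least 2 times the level of the other DMSO libraries, against 10.8% of all genes tested and 1.03% of the 9218 genes tested with a dCBP-1 mean of 100 or more, a level the rule also asked of members.

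PSMC1, a subunit of the proteasome's regulatory particle, had the widest gap of these. PSMC1 had 1418, 1421 and 1415 normalized read counts in dCBP-1, against 351, 306 and 1306 in DMSO. Its DMSO replicate 3 lay close to the treated libraries, while the other DMSO libraries were far below them. CETN3, a centrin of the centrosome and basal body, had 4594, 4118 and 3676 normalized read counts in dCBP-1, against 765, 1035 and 2927 in DMSO, and its A-485 libraries, with 2628, 2735 and 2534, lay below DMSO replicate 3. MPHOSPH6, a cofactor of the RNA exosome, had 1484, 1424 and 1621 in dCBP-1, against 519, 452 and 1156 in DMSO. GLE1, an mRNA export factor, had 2128, 1934 and 2190 in dCBP-1, against 525, 596 and 1251 in DMSO. These 4 members were named for this gap after their values were seen.

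**Figure D3:**
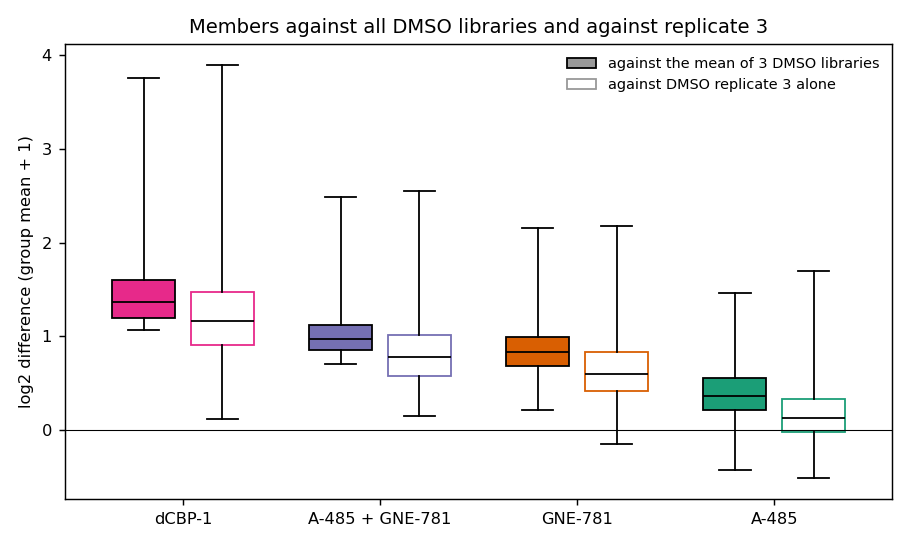
Log2 difference of group means for the 300 members, by treatment, against the mean of the 3 DMSO libraries (filled boxes) and against DMSO replicate 3 alone (open boxes). Boxes span the quartiles with the median as a line and whiskers reach the lowest and highest member, and each open box sits lower than its filled partner, with a median of 1.16 in the open and 1.36 in the filled box of dCBP-1.

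Given alone, the bromodomain ligand passed the threshold of the pair, an L difference from DMSO of 0.7, for more members than the acetyltransferase inhibitor. It was reached by 217 members in GNE-781 and by 34 in A-485, where 10.8% and 6.76% of genes tested reached it. Against DMSO replicate 3 alone the counts were 111 in GNE-781 and 17 in A-485. The shares of genes tested given here are against all DMSO libraries. They are not given for replicate 3 alone, so nothing is read from those counts. With all DMSO libraries, the 34 all reached it in both, 183 did so in GNE-781 alone, and 83 in neither. All 3 libraries lay above all DMSO libraries for 272 members in GNE-781 and for 69 in A-485, where the same held for 15.2% and 3.6% of all genes tested. For dCBP-1 and A-485 + GNE-781 that separation was part of the rule, with 21.8% and 15.6% of genes tested showing it. In the fit across all genes with limma, 269 members were called higher in GNE-781 than in DMSO, where 7.82% of genes tested were, and 22 in A-485, where 0.348% were. The count was 300 for dCBP-1, where 19.3% of genes tested were called higher, and 298 for A-485 + GNE-781, where 11.4% were. These comparisons share the DMSO libraries that chose the members, and nothing is read from those counts. The L difference of A-485 + GNE-781 minus GNE-781 had a median of 0.16 over members, with 260 of the 300 above 0, against a median of 0.03 over all genes tested. The rule asked for a high level in A-485 + GNE-781, so this too is a description.

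GNE-781 against A-485 is the comparison whose group means came from libraries the rule did not use. Its limma test took the spread between replicates from all 15 libraries, those that chose the members included, so its p-values are not fully independent of the rule. GNE-781 gave the higher level for 294 of the 300 members, with a median log2 difference of 0.48, quartiles of 0.34 and 0.61 and a range from -0.14 to 1.57. Over all genes tested, 61.0% were higher in GNE-781 and the median was 0.08. By limma's moderated test with Benjamini-Hochberg adjustment over all 16104 genes, 19 members were called higher in GNE-781 and none lower, at an adjusted p below 0.05. That was 6.33% of the members, where 0.273% of genes tested were called higher and 0.727% lower. Among genes with a dCBP-1 mean of at least 100, 0.423% were called higher. At an unadjusted p below 0.05, 173 members passed. The share of all genes tested is not given for that threshold, so nothing is read from this count. A fit of the 6 GNE-781 and A-485 libraries alone called 69 members higher and none lower, where 223 of all genes tested were called higher and 243 lower. All 3 GNE-781 libraries lay above all 3 A-485 libraries for 196 members, against 12.6% of genes tested, and all 3 lay below for none, against 7.3%. The remaining 281 members were not called, which does not show that both compounds acted alike on them. The count depended on single libraries, and was 3 without GNE-781 replicate 1, 5 without GNE-781 replicate 2, 5 without GNE-781 replicate 3, 6 without A-485 replicate 2, 4 without A-485 replicate 3, 31 without dCBP-1 replicate 3 and 36 without DMSO replicate 3.

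PEX11A (ENSG00000166821), a membrane protein that drives peroxisome division, showed the largest called difference among the members. PEX11A had 75.5, 88.04 and 76.6 normalized read counts in GNE-781, against 29.8, 28.5 and 24.5 in A-485. Its A-485 libraries lay near its DMSO libraries of 16.3, 27.4 and 24.3, and its A-485 + GNE-781 libraries, at 74.1, 88.3 and 78.6, overlapped those of GNE-781. The log2 difference between GNE-781 and A-485 was 1.50 ± 0.27 (SE, n = 3 each, limma adjusted p = 0.00227). EIF5A2 (ENSG00000163577), a paralog of the hypusinated translation factor eIF5A, had 209, 189 and 164 in GNE-781, against 114, 78.9 and 71.2 in A-485, with no overlap. Its log2 difference was 1.10 ± 0.21 (SE, n = 3 each, limma adjusted p = 0.00331). PEX11A and EIF5A2 were called under all 26 alternative settings run for this comparison. SMIM14, a small membrane protein of the endoplasmic reticulum, had 521, 501 and 428 in GNE-781, against 292, 278 and 272 in A-485, a log2 difference of 0.78 (limma adjusted p = 0.00533) that lost its call in 1 of the 26 settings, without GNE-781 replicate 1 (limma adjusted p = 0.0672). PGBD1, a gene derived from a piggyBac transposase, had 178, 184 and 192 in GNE-781, against 99.7, 104 and 73.5 in A-485, a log2 difference of 1.01 (limma adjusted p = 0.00695) that lost its call in 2 settings, with an adjusted p of up to 0.0644.

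The other called members included immediate early, transport, cytoskeletal and lipid genes. FOS, a subunit of the AP-1 transcription factor, had 134, 136 and 176 normalized read counts in GNE-781, against 103, 43.1 and 55.4 in A-485, and 74.00, 84.4 and 64.3 in DMSO. All GNE-781 libraries were above the A-485 libraries, of which the first was the highest, and the log2 difference was 1.22 (limma adjusted p = 0.0196). SLC2A3, the glucose transporter GLUT3, had 195, 199 and 181 in GNE-781, against 109, 117 and 87.8 in A-485 (log2 difference 0.88, limma adjusted p = 0.0249). KCNS3, a modulatory subunit of voltage-gated potassium channels, had 518, 365 and 474 in GNE-781, against 274, 257 and 154 in A-485 (limma adjusted p = 0.03). SCD5, a stearoyl-CoA desaturase, had 287, 277 and 237 in GNE-781, against 142, 172 and 136 in A-485 (limma adjusted p = 0.0246).

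PLEKHH2, GRAMD1C, CCDC181, CPLANE1, TAOK3, KIF3A, PACSIN2, ATP1B1, NBPF1, SWAP70 and H3-3B completed the 19, with log2 differences from 0.56 in H3-3B to 1.31 in PLEKHH2. The limma adjusted p was 0.0488 for H3-3B, 0.0476 for ATP1B1 and 0.0426 for SWAP70. GRAMD1C moves cholesterol from the plasma membrane, TAOK3 is a stress kinase, ATP1B1 is the beta subunit of the sodium-potassium pump, and PACSIN2 bends membranes at caveolae. NBPF1 belongs to a family of near-identical copies, so its reads may be shared with other copies. In all 19, the 3 GNE-781 libraries lay above the 3 A-485 libraries, and in none did the 3 A-485 libraries lie above all DMSO libraries. Apart from PEX11A, EIF5A2, SMIM14 and PGBD1, each called member lost its call in between 4 and 14 of the 26 settings.

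**Figure D4:**
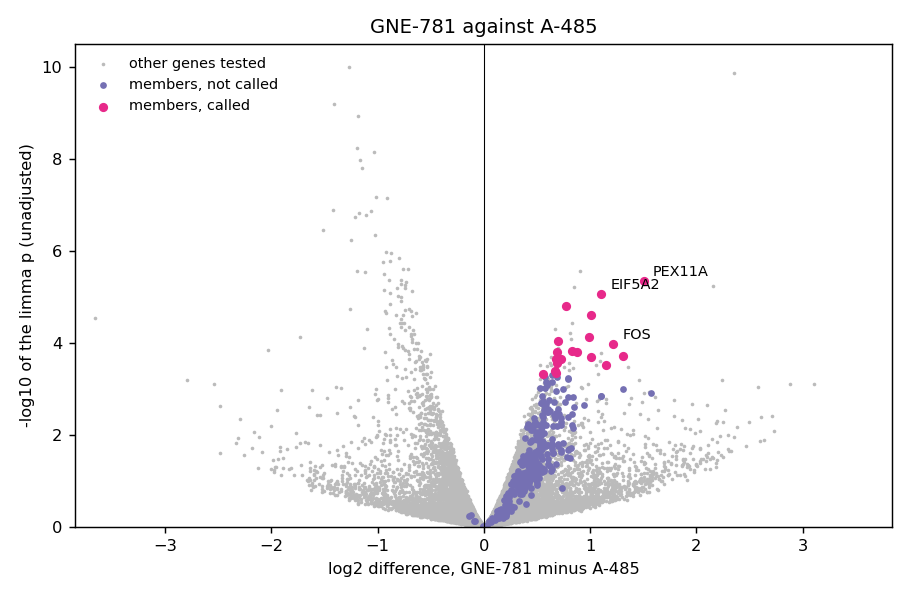
Log2 difference of GNE-781 minus A-485 (horizontal axis) against -log10 of the unadjusted limma p (vertical axis, log scale by construction) for the 16104 genes tested, with members in colour. The 19 called members and 294 of the 300 members lie to the right of 0, while genes tested in all were called 44 times to the right and 117 times to the left.

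dCBP-1 carried nearly all members beyond the pair of inhibitors. The L difference of dCBP-1 minus A-485 + GNE-781 had a median of 0.40 over members, with quartiles of 0.28 and 0.54, against a median of -0.03 over genes tested. It was below 0 for 5 members, between 0 and 0.5 for 201, between 0.5 and 1 for 83 and above 1 for 11. All 3 dCBP-1 libraries were above all 3 A-485 + GNE-781 libraries for 172 members and below for none, where 8.88% and 14.3% of genes tested were. The rule ranked members by dCBP-1, so this is a description. Across the 300 members, GNE-781 minus A-485 was set beside dCBP-1 minus A-485 + GNE-781, a difference that shares no library with it. Pearson r was 0.20 and Spearman rho 0.10, against 0.27 and 0.33 across the 16104 genes tested, where genes are not independent replicates. The rule limited the dCBP-1 and A-485 + GNE-781 values of members. Members and genes tested are therefore not compared alike, and nothing is read from the gap in r or rho.

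SLC30A3, which loads zinc into vesicles, was the member with the largest difference between dCBP-1 and DMSO. SLC30A3 had 149.9, 109 and 164 normalized read counts in dCBP-1, 60.5, 61.1 and 24.02 in A-485 + GNE-781, 41.4, 46.4 and 37.8 in GNE-781, 42.1, 29.4 and 11.9 in A-485 and 1.92, 17.9 and 8.50 in DMSO. The dCBP-1 libraries stood above all others, and the DMSO libraries were spread over a wide range at few reads. Its mean was 14.9-fold that of DMSO in dCBP-1 and 5.14-fold in A-485 + GNE-781. MOK, a kinase of the MAP kinase superfamily that acts at the cilium, had 122, 120.4 and 130.4 in dCBP-1, 62.1, 65.6 and 91.7 in A-485 + GNE-781, 59.8, 55.9 and 58.1 in GNE-781, 41.1, 32.1 and 31.6 in A-485 and 13.5, 7.38 and 15.8 in DMSO. None of its 5 groups overlapped, and its dCBP-1 mean was 10.2-fold that of DMSO. TRIM2, a ubiquitin ligase, had 171, 139 and 168 in dCBP-1, 67.7, 103 and 57.9 in A-485 + GNE-781 and 6.73, 37.97 and 12.1 in DMSO. RIMKLA, which makes the neuropeptide N-acetylaspartylglutamate, had 139.7, 116 and 132 in dCBP-1, 50.96, 106 and 43.7 in A-485 + GNE-781 and 11.5, 15.8 and 19.4 in DMSO. In both, dCBP-1 lay above the inhibitor pair with no overlap.

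Several of the leading members are cell surface or secretory genes. ITGA2, the collagen receptor integrin alpha 2, had 142, 113 and 104 normalized read counts in dCBP-1, 58.1, 48.7 and 52.4 in A-485 + GNE-781, 49.7, 65.4 and 48.9 in GNE-781 and 13.5, 16.9 and 25.5 in DMSO. GNE-781 and the pair overlapped, while dCBP-1 lay above both. CHST2, a sulfotransferase that modifies N-acetylglucosamine on glycans, had 98.7, 147 and 97.2 in dCBP-1 and 28.8, 5.27 and 19.4 in DMSO, and its A-485 libraries of 26.7, 9.18 and 17.4 overlapped DMSO. Its log2 difference between GNE-781 and A-485, 1.57, was the largest among members and missed the threshold (limma adjusted p = 0.0838). SEMA6C, a transmembrane semaphorin, had 127, 111 and 80.6 in dCBP-1, 35.04, 48.7 and 34.9 in A-485 + GNE-781, 23.9, 27.4 and 32.3 in GNE-781, 10.3, 19.3 and 18.2 in A-485 and 23.1, 10.5 and 16.99 in DMSO. A-485 and DMSO overlapped, and the dCBP-1 mean was 6.3-fold that of DMSO.

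The rest of the 15 leading members were enzymes, lipid handlers and regulators. OSBPL6, an oxysterol-binding protein, had 284, 237 and 248 normalized read counts in dCBP-1 and 45.2, 37.97 and 49.8 in DMSO, and all of its A-485 libraries, at 132, 80.8 and 96.5, were also above DMSO. AKR1C3, an aldo-keto reductase of prostaglandin and steroid metabolism, had 137, 142 and 121 in dCBP-1, 17.5, 33.05 and 18.2 in A-485 and 14.4, 24.3 and 31.6 in DMSO. AKR1C3 has near-identical paralogs, so its level is uncertain where reads could be split. DGKA, a diacylglycerol kinase of lymphocytes, had 120.1, 169.6 and 187 in dCBP-1, 116, 130.2 and 104 in A-485 + GNE-781, 108, 91.6 and 108 in GNE-781 and 41.3, 14.8 and 37.6 in DMSO. The dCBP-1 and combination libraries of DGKA overlapped, unlike those of OSBPL6 and AKR1C3. HOXA10, a homeobox factor, had 125, 121 and 110.3 in dCBP-1 and 16.3, 17.9 and 32.8 in DMSO, and its paralog HOXB7 had 216, 216 and 219 in dCBP-1 and 111, 87.5 and 77.7 in DMSO. SMIM3 and TRIM45 averaged 119.6 ± 23.6 and 100.2 ± 9.88 in dCBP-1, against 22.8 ± 15.3 and 19.1 ± 7.76 in DMSO (SD, n = 3 each).

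The members were mostly of low to moderate level. The median member had a mean of 101.2 normalized read counts in DMSO, against 577 for genes tested with a dCBP-1 mean of 100 or more, and 6 members had a DMSO mean of at least 1000. By the reference annotation 289 of the 300 were protein-coding genes. H3-3B, which encodes the replication-independent histone H3.3, was the most abundant in dCBP-1. H3-3B had 28007, 27326 and 26921 in dCBP-1, 15744, 18393 and 16844 in A-485 + GNE-781, 16722, 17097 and 17796 in GNE-781, 13209, 11529 and 10489 in A-485 and 9169, 9356 and 12376 in DMSO. The pair of inhibitors overlapped GNE-781, and dCBP-1 lay above every other library. HSP90AA1, the stress-inducible cytosolic HSP90, had 19435, 18756 and 29515 in dCBP-1, 18413, 23312 and 19817 in A-485 + GNE-781 and 10333, 9531 and 12392 in DMSO. Its dCBP-1 replicate 3 stood above the rest, and the other dCBP-1 libraries overlapped A-485 + GNE-781. H3-3B, HSP90AA1 and PSMC1 have processed pseudogenes, which may share reads with them.

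CLSPN, the checkpoint adaptor claspin, had 3513, 3659 and 5428 normalized read counts in dCBP-1, 3027, 3906 and 3463 in A-485 + GNE-781, 3545, 3332 and 2742 in GNE-781, 2376, 2154 and 2024 in A-485 and 1762, 1813 and 2412 in DMSO. Its A-485 libraries lay within the DMSO range. BEX5, of the brain-expressed X-linked family, had 5968, 5160 and 5484 in dCBP-1, 3868, 3671 and 3077 in A-485 + GNE-781, 3227, 2983 and 3527 in GNE-781, 3261, 2850 and 2264 in A-485 and 1560, 1348 and 2587 in DMSO. Among BEX and TCEAL genes, which lie in an X-linked cluster of related small proteins, 4 of the 11 tested were members, BEX5, BEX3, BEX4 and TCEAL9, and these may share reads. TCEAL9 had 419, 383 and 439 in dCBP-1, 240.3, 201 and 208 in GNE-781 and 62.5, 108 and 172 in DMSO. The BEX, TCEAL and other symbol families were drawn up after the members' names were known.

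Genes of the cilium recurred among the members. The primary cilium is a microtubule-based antenna built by intraflagellar transport, with kinesin-2 carrying cargo out and cytoplasmic dynein-2 carrying it back, and with a BBSome coat and a gate at its base. A list of cilium genes was drawn up after the members were seen, so its count has no test. It held 122 genes tested, of which 22 were members, or 18.0%, against 1.86% of all genes tested. Members were 3 of 23 intraflagellar transport proteins, 3 of 9 ciliary motor genes, 3 of 18 BBSome and ciliary GTPase genes, 7 of 44 transition zone and basal body genes and 6 of 28 axoneme genes. In dCBP-1 against DMSO, a contrast the rule used, limma called 62 of the 122 higher and 4 lower, where 19.3% and 18.5% of genes tested were. In GNE-781 against A-485, 21 of the 22 cilium members were above 0, with a median log2 difference of 0.46. GNE-781 lay above A-485 with no overlap for 15, and KIF3A and CPLANE1 were called. Of the 300 members, 98.0% were above 0, the median was 0.48, 196 had no overlap and 6.33% were called higher. For genes tested these values were 61.0%, 0.08, 12.6% and 0.273%. Members in general thus showed this pattern, and cilium members were not tested apart from them. Over all 122 cilium genes the median was 0.30, and 2 were called higher and none lower.

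Promoters of the cilium genes and of PEX11A are shown because ciliary genes in animals are known targets of RFX factors, which bind the X-box. In RefSeq promoters of GRCh38.p14, running from 250 bases before to 50 bases after the start, GTTGCC was searched on both strands. It was found in 9 of the 18 cilium members with a promoter, which is 50%, in 43 of 99 cilium genes tested, or 43.4%, and in 1423 of 11121 genes tested, or 12.8%. A longer X-box pattern, GTNNCC followed by NNN and then GNAAC, was tried after the data were seen and was found in 3 of the 18, in 17 of the 99, or 17.2%, and in 2.60% of the 11121. Other motifs were searched in the same promoters. CCAAT was also in 9 of the 18, with 37.0% of the 11121. TGACGTCA and CCGGAAGT were each in 3 of the 18, with 3.19% and 8.48% of the 11121. Some were lower, such as GGGCGG, in 9 of the 18 and 68.4% of the 11121. No motif was tested. In the sequences, capitals mark GTTGCC or its reverse complement in the dynein-2 heavy and light intermediate chains DYNC2H1 (chr11:103109176-103109475, plus strand) and DYNC2LI1 (chr2:43773789-43774088, plus strand), the transport GTPase IFT27 (chr22:36776070-36776369, minus strand) and the ciliary base protein SPATA7 (chr14:88385407-88385706, plus strand). They mark the longer motif in PEX11A (chr15:89690705-89691004, minus strand). The called members KIF3A (chr5:132737497-132737796, minus strand) and CPLANE1 (chr5:37249327-37249626, minus strand) had no GTTGCC in this window.
DYNC2H1: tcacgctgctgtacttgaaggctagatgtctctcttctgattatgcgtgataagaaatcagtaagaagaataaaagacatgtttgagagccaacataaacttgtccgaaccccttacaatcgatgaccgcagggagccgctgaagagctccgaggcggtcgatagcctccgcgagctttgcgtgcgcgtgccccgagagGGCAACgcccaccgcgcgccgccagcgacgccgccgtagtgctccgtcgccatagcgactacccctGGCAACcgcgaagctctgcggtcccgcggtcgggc
DYNC2LI1: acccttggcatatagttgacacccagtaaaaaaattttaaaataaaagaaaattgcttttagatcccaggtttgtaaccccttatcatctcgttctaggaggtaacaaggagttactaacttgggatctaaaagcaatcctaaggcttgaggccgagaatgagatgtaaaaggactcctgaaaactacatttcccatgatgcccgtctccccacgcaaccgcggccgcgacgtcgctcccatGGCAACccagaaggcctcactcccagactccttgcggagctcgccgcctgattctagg
IFT27: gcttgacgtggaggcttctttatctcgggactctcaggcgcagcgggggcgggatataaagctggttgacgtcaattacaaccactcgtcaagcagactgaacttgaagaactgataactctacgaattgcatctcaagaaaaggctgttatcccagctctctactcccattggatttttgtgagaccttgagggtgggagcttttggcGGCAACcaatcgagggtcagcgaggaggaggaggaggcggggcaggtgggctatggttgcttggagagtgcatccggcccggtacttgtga
SPATA7: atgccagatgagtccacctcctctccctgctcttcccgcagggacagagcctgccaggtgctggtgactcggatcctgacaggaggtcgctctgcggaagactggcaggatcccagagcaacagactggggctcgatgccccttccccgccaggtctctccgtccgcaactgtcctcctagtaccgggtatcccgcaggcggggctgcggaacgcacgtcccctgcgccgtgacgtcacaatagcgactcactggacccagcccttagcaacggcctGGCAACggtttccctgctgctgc
PEX11A: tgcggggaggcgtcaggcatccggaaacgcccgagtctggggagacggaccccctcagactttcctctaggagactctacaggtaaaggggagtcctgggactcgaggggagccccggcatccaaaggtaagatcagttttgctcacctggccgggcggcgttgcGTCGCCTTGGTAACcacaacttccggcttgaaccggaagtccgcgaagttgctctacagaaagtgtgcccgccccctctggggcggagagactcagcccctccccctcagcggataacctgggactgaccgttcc
KIF3A: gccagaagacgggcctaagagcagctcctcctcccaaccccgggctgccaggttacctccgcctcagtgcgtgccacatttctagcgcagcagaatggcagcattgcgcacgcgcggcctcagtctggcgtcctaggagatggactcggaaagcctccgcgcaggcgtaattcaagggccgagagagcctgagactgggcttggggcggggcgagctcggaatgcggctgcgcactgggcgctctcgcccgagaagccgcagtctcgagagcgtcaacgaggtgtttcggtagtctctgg
CPLANE1: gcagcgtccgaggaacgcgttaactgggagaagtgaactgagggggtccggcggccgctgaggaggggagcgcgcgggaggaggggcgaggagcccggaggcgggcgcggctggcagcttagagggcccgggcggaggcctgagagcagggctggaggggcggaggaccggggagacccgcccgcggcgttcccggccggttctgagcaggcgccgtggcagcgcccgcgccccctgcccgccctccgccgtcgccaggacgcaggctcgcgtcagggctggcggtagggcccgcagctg
Only 236 of the 300 members had a promoter in the tables, so a motif count over all members is void.

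Among the ciliary motors, KIF3A, a motor subunit of kinesin-2, had 613, 723 and 563 normalized read counts in GNE-781, against 467, 359.9 and 354 in A-485, and 707, 717 and 940.2 in dCBP-1, against 369.98, 350.1 and 394 in DMSO. GNE-781 lay above A-485 in every library (log2 difference 0.69 ± 0.16, SE, n = 3 each, limma adjusted p = 0.0249). DYNC2H1 had 116, 129.7 and 109 in GNE-781, against 60.6, 89.97 and 56.9 in A-485, and 209.5, 189.8 and 177 in dCBP-1, against 83.6, 56.9 and 74.04 in DMSO. A-485 overlapped DMSO for both motors, and the difference between GNE-781 and A-485 in DYNC2H1, 0.79, was not called (limma adjusted p = 0.091). DYNC2LI1 had 419.98, 397 and 326 in dCBP-1, 272, 297 and 275 in A-485 + GNE-781 and 164, 124 and 144 in DMSO.

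Of the transport proteins, IFT27 had 344, 328 and 391 normalized read counts in dCBP-1, 272, 287 and 264 in GNE-781, 218, 199 and 194 in A-485 and 126, 136 and 187 in DMSO. TTC26, an IFT-B component, had 585, 543 and 469.5 in dCBP-1, 306, 319 and 389 in GNE-781, 311, 274 and 296 in A-485 and 201, 179 and 282 in DMSO. IFT22 had 129, 124 and 106 in dCBP-1, 82.8, 128 and 117 in A-485 + GNE-781, 77.3, 58.3 and 59.1 in GNE-781, 46.2, 41.3 and 45.9 in A-485 and 67.3, 66.4 and 33.99 in DMSO. IFT22 overlapped DMSO under either inhibitor alone. Its separation from DMSO under the pair and dCBP-1 was required of every member by the rule. The BBSome subunits BBS4 and BBS7 averaged 304 ± 12.97 and 579.9 ± 102 in dCBP-1, against 95.4 ± 26.7 and 205 ± 54.3 in DMSO (SD, n = 3 each).

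At the ciliary base, CPLANE1, which recruits transport particles there, had 263, 355 and 262 normalized read counts in GNE-781, against 189, 153 and 186 in A-485, and 132, 175 and 155 in DMSO. Its log2 difference between the inhibitors was 0.72 ± 0.17 (SE, n = 3 each, limma adjusted p = 0.0316). TTBK2, the kinase that starts ciliogenesis, had 455, 481 and 483 in dCBP-1, 219.8, 278 and 223 in A-485 + GNE-781, 218, 253 and 243 in GNE-781 and 128, 104 and 135 in DMSO. GNE-781 and the pair overlapped in TTBK2, while dCBP-1 was well above both, with a mean 3.87-fold that of DMSO. SPATA7 had 135, 134 and 130.4 in dCBP-1 and 38.4, 11.6 and 49.8 in DMSO, where replicate 2 was low. Among axoneme genes, the dynein light chain DNAL4 had 356, 334 and 257 in dCBP-1 and 81.7, 69.6 and 144 in DMSO, and SPAG16, of the central apparatus, had 295, 268 and 328 in dCBP-1 and 129.7, 105 and 149 in DMSO. CETN3, with its gap among DMSO libraries, also belongs to the basal body list.

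**Figure D5:**
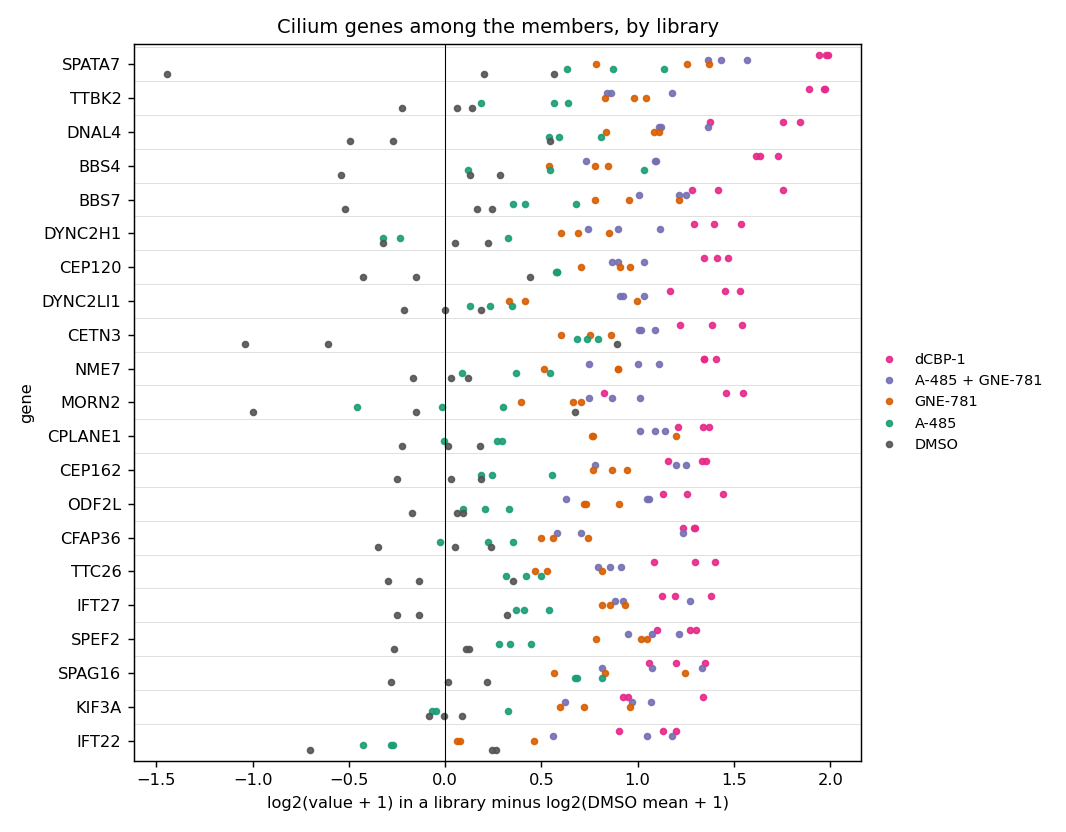
Of the 22 cilium genes among the members, 21 are shown, with log2(value + 1) in a library minus log2(DMSO mean + 1) on the horizontal axis and 1 point per library, coloured by treatment. The dCBP-1 points lie to the right of the DMSO points for every gene, as the rule requires, while A-485 points overlap DMSO for 14 of the 21.

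The peroxisome list, also drawn up after the members were known and so without a test, held 53 genes tested, of which 5 were members, or 9.43%, against 1.86% of all genes tested. Beside PEX11A these were the enzymes of peroxisomal fatty acid oxidation ACAA1 and EHHADH, the acylcarnitine exporter enzyme CROT and catalase. ACAA1 had 345, 343 and 681 normalized read counts in dCBP-1, 331, 284 and 299.98 in GNE-781 and 186, 115 and 177 in DMSO, with dCBP-1 replicate 3 far above the rest. CROT had 161, 183 and 193 in GNE-781, against 96.6, 105 and 130.5 in A-485, and 96.1, 132 and 71.6 in DMSO. EHHADH averaged 252 ± 6.62 in dCBP-1 and 118 ± 25.3 in DMSO, and CAT, the gene of catalase, averaged 582 ± 45.3 in dCBP-1 and 273 ± 17.96 in DMSO (SD, n = 3 each). Of these 5, only PEX11A was called between GNE-781 and A-485.

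SLC2A3 and HK1, the hexokinase that starts glycolysis, were the 2 members among 25 tested genes of a glycolysis and hypoxia list, where dCBP-1 against DMSO gave 3 called higher and 10 lower. That contrast was used by the rule, and 19.3% of genes tested were called higher in it and 18.5% lower. SLC2A3 had 399, 380.4 and 469.5 normalized read counts in dCBP-1, 194, 212 and 205 in A-485 + GNE-781 and 65.3, 63.3 and 108 in DMSO. HK1 had 223, 197 and 256 in dCBP-1, 143, 171 and 181 in A-485 + GNE-781 and 49.97, 72.8 and 75.3 in DMSO. Both lay above DMSO in every treated library of those groups, as the rule requires of every member. For SLC2A3 the L difference between dCBP-1 and the pair was 1.03. PLIN3, a lipid droplet coat protein, had 1055, 1041 and 1461 in dCBP-1, 832, 792 and 779 in GNE-781, 578, 576 and 444 in A-485 and 328, 316 and 438 in DMSO. ASNS, asparagine synthetase, had 1507, 1487 and 1358 in GNE-781, against 919.8, 1026 and 854 in A-485, and 629, 649 and 1049 in DMSO (limma adjusted p = 0.0624 between the inhibitors). PCK2, mitochondrial phosphoenolpyruvate carboxykinase, averaged 227 ± 30.6 in dCBP-1 and 94.5 ± 28.02 in DMSO (SD, n = 3 each).

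NEU1, the lysosomal sialidase, had 975, 1081 and 961 normalized read counts in GNE-781, against 835, 636 and 565 in A-485, and 553, 613 and 739 in DMSO. ATP6V1B2, a subunit of the proton pump that acidifies lysosomes, averaged 1953 ± 204 in dCBP-1 and 819.9 ± 241 in DMSO (SD, n = 3 each). NEU1 and ATP6V1B2 were 2 of 36 tested lysosome genes. ULK1, the kinase that starts autophagy, had 409.7, 409.5 and 478 in dCBP-1 and 135, 185 and 245 in DMSO and was 1 of 26 tested autophagy genes, of which limma called 15 higher and 3 lower in dCBP-1 against DMSO, a contrast the rule used, where 19.3% of genes tested were called higher and 18.5% lower.

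Transcription and signalling regulators were scattered among the members. SRF, which pairs with actin-sensing coactivators, had 1112, 1115 and 2255 normalized read counts in dCBP-1, 1444, 1005 and 1165 in GNE-781 and 492, 564 and 804 in DMSO, with A-485 values of 949.6, 1103 and 465 spread across both. FOXO4, a forkhead factor restrained by AKT, had 237, 244 and 257 in dCBP-1, 165, 195 and 181 in A-485 + GNE-781 and 99.9, 68.5 and 97.1 in DMSO. HSF2, a heat shock factor, had 1293, 1269 and 1433 in dCBP-1, 953, 980.3 and 954 in GNE-781 and 347, 471 and 629.97 in DMSO. HSF2 and HSP90AA1 were the members among 21 tested heat shock genes, of which 6 were called higher and 6 lower in dCBP-1 against DMSO, beside 19.3% and 18.5% of genes tested. KDM5B, a histone demethylase, averaged 158 ± 25.6 in dCBP-1 and 62.4 ± 8.22 in DMSO, and MAP2K6, the kinase upstream of p38, averaged 131 ± 41.3 in dCBP-1 and 26.9 ± 14.9 in DMSO (SD, n = 3 each). FOS, the 1 member among 27 tested immediate early and AP-1 genes, had 96.4, 138 and 181 in A-485 + GNE-781 and 196, 229 and 147 in dCBP-1, while that list gave 6 called higher and 12 lower in dCBP-1 against DMSO.

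Among symbol families, 14 of 449 tested ZNF zinc finger genes, or 3.12%, were members, against 1.86% of genes tested and 3.25% of those with a dCBP-1 mean of 100 or more. In dCBP-1 against DMSO, which the rule used, 121 of the 449 were called higher and 35 lower, beside 19.3% and 18.5% of genes tested. TRIM genes gave 4 of 41 and HOX genes 2 of 13. Symbols beginning with SLC gave 11 of 236, or 4.66%, of which SLC4A1AP is not a carrier. Of 33 gene lists drawn up from the study's subject, with earlier results known, 18 held no member, 15 held 1 or 2 and none held more. Lists with no member included cholesterol synthesis, p53 targets, NRF2 targets, histone acetyltransferases and deacetylases, TGF-beta, Notch and WNT, and the BCL2 family. These held from 15 to 28 genes tested. With members at 1.86% of genes tested, holding no member does not set such short lists apart.

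The 5 members with a lower mean in dCBP-1 than in the inhibitor pair were NEIL2, TMEM54, FAM114A1, the pseudogene UBE2Q2P1 and PSMC1, and AGO4 came next. NEIL2, a DNA glycosylase of base excision repair, had 136, 143 and 193 normalized read counts in dCBP-1, 189, 222 and 135 in A-485 + GNE-781 and 55.7, 27.4 and 83.8 in DMSO. The pair and dCBP-1 overlapped in NEIL2, with an L difference of -0.21. AGO4, an Argonaute protein, averaged 364 ± 8.48 in dCBP-1, 363 ± 15.4 in A-485 + GNE-781 and 167 ± 32.3 in DMSO (SD, n = 3 each). TUBB2A, a beta tubulin with a near-identical paralog, had 85.7, 138 and 180.2 in dCBP-1, 127, 139 and 73.2 in A-485 + GNE-781, 104, 101 and 105 in GNE-781 and 42.3, 20.04 and 43.7 in DMSO, with the 3 treated groups overlapping.

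At the edge of the group, the last members kept were CLSPN, LINC00960 and HSP90AA1, each with a dCBP-1 minus DMSO L difference of 1.07. NOSIP, ZNF354A and CBR3, each also at 1.07, were the first left out by the limit of 300. ZNF211 was the member nearest the combination threshold and ZSCAN29 the nearest gene outside it, both at 0.70. TRIM45, with a dCBP-1 mean of 100.2, was just inside the level threshold and DOK4, with 98.2, just outside.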

How the data were processed

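3′ end libraries (Lexogen QuantSeq 3′ mRNA-Seq FWD, per the labels' protocols) were made from MM.1S cells. Per the labels, reads were placed on hg19; the aligner, the counter, its use of strand, the annotation and the normalization tool are not given in the sources used here. The deposited values, of unit signal, are normalized read counts per gene. In each library 100% of them were whole multiples of a library step within 0.01, so read counts behind the deposited values were recovered, with depths of 13103114 to 18291529 per library, and used for the edgeR and DESeq2 alternatives, which called 84 genes higher and 329 lower, and 218 higher and 545 lower, in GNE-781 against A-485.

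Genes with 5 or more in at least 3 of 15 libraries (16104) were tested on log2(value + 1) with limma 3.58.1 in R 4.3.3, trend on, with all 5 groups in 1 fit and Benjamini-Hochberg adjustment over all genes tested. Fold changes on this scale understate low genes. The test was checked on simulated data. The alternatives used edgeR 4.0.16 and DESeq2 1.42.0. Symbols matched 96.5% of identifiers and 297 of the 300 members. The labels of 2 combination libraries give other GNE numbers in the treatment field, and the molecule field reads genomic DNA; titles were followed. Replicates differed beyond sampling noise, with a chi-square per degree of freedom of 5.61 to 46.5.

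The members and gene lists were chosen with earlier results of these data known. Named genes are the 15 highest members by dCBP-1 minus DMSO, the 10 highest by A-485 + GNE-781 minus DMSO, the 10 with the largest called GNE-781 minus A-485 difference, the 5 with the highest dCBP-1 mean, the 5 with the smallest dCBP-1 minus A-485 + GNE-781, up to 4 members of each gene list, and those at the thresholds. The remaining called members, the BEX, TCEAL and HOX genes, CHST2's inhibitor contrast and the members with a DMSO gap were named after their values were seen. 1 member of the cilium list is counted but not reported here by name.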

Additional observations from a re-analysis of the deposited data

How the results depend on the processing

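The members' median differences kept their sign under every setting run. The median log2 difference between GNE-781 and A-485 stayed between 0.39 and 0.57, and no member was called lower in any setting. The number of members called higher, 19, became 31 with quantile normalization, 11 unfiltered, 69 in a fit of the A-485 and GNE-781 libraries alone, 30 with edgeR and 68 with DESeq2, and ranged from 3 to 36 with each library left out in turn. All genes called higher, 44, became 78 with TMM scaling, 75 with median-ratio scaling, 107 with quantile normalization, 22 unfiltered, 223 in a fit of A-485 and GNE-781 alone, 84 with edgeR and 218 with DESeq2, and ranged from 9 to 88 with a library left out. All genes called lower, 117, became 315, 320 and 281 under the 3 scalings, in the same order, 243 in that fit, 329 with edgeR and 545 with DESeq2, and ranged from 47 to 149. Without A-485 replicate 1 the balance turned, with 60 genes called higher and 51 lower. The cause of these shifts was not tested. With the replicate block, 11 members and 23 genes were called higher. Same-numbered A-485 and GNE-781 libraries did not deviate together (r from -0.49 to 0.02). Over all pairs of groups, r between same-numbered libraries ranged from -0.53 to 0.40. These values cannot show whether the numbers pair the samples, and the main fit used no pairing. Genes passing the rule, 344, ranged from 290 to 555 with a library left out, with 555 without DMSO replicate 3, and were 217 without DMSO replicates 1 and 2 together. Without those, the members' median differences from DMSO were 1.16 for dCBP-1, 0.77 for the pair, 0.60 for GNE-781 and 0.12 for A-485. Medians over all genes tested were then -0.09, -0.07, -0.09 and -0.17, in the same order. The members with a mean above DMSO were then 297 for GNE-781 and 215 for A-485, instead of 300 and 277, and single members turned, such as PSMC1, at -0.07 for GNE-781 and -0.20 for A-485, and CETN3, at -0.15 for both. With a DMSO library left out, the dCBP-1 value ranged from 1.29 to 1.51, the highest without DMSO replicate 3. At about 100 normalized read counts in DMSO and 3 libraries a group, the median standard error of a member's GNE-781 minus A-485 difference was 0.22, which limits calls of small differences.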
